A study of Mus musculus with 4 samples.

Results

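The change of the mouse dental papilla from E17 to PN2 was described across 14238 genes, out of 16039 named genes on the array, namely those with a normalised signal of 100 or more in any tissue and stage. The papilla at PN2 (P PN2) was set against the papilla at E17 (P E17), and the dental follicle at PN2 (DF PN2) and at E17 (DF E17) was used only to show where the papilla differed. The labels name no genotype, allele, treatment or agent for any of these groups, and the strain, the sex, the day count behind PN2 and the number of animals behind each RNA are not given in the sources used here. The genes were taken from the 2-colour Agilent array whose title compares P PN2 with P E17. Its second column repeats the DF E17 signals (100% of probes identical) although the labels place P E17 there, and the P E17 signals therefore came from the array titled with DF E17 and P E17. Each tissue and stage rests on 1 hybridisation, so no p-value was computed. Genes past 2-fold, a log2 ratio of P PN2 over P E17 beyond 1 in size and the limit of the series' design text, are called higher or lower.

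The dental papilla is the mesenchyme enclosed by the enamel organ. Its outermost cells leave the cell cycle, become odontoblasts and secrete a matrix of type I collagen that mineralises to dentin, while the inner cells form the pulp with its vessels and nerves. This differentiation is steered by exchange of BMP, FGF, Wnt and Hedgehog signals with the overlying epithelium, which forms enamel.

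The median signal as deposited was 205 in P PN2 and 352 in P E17, and quantile normalisation over the 4 columns removed that offset: the median log2 ratio of all genes compared was -0.02 after it and -0.80 without it. Directions below hold relative to that scale. Without normalisation the list medians were 0.65 for odontoblast and dentin genes, -0.04 for mineralisation, -0.31 for collagens, -0.22 for collagen modification and -0.23 for proteoglycans. Signals below are normalised signals, on a linear scale and in arbitrary units, as the geometric mean over the probes of a gene. Of 12 housekeeping genes, 0 passed 2-fold (median 0.03), among them Rpl13a with 45801 in P PN2 and 45801 in P E17 and Hprt with 2481 in P PN2 and 2219 in P E17. Where a gene had several probes, their log2 ratios differed with a pooled SD of 0.651 (6436 genes). This spread between probes is the error available here, and it covers no variation between animals. It is close to the SD of the log2 ratios themselves, 0.669 over all genes compared. In 119 of the called genes the lower papilla signal lay under 37.9, the 5th percentile over all signals after normalisation, and where such a gene is described the ratio with both signals raised to that percentile (the raised ratio) is also given.

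Some transcription factor genes of odontogenic mesenchyme had high signals at both stages. They were picked from 30 measured genes of that list, of which 7 were lower and 2 higher at PN2. No follicle signals are set beside them here, so they do not tell papilla from follicle. The homeobox gene Dlx5 had a signal of 39696 in P PN2 and 36438 in P E17, Msx2 of 7722 in P PN2 and 5355 in P E17, Dlx6 of 3233 in P PN2 and 4665 in P E17 and the paired-box gene Pax9 of 4994 in P PN2 and 17025 in P E17. The labels also mention stem cell culture and the whole embryo, 1 tissue entry reads DF PN3 where its title has DF PN2, and the titles were followed.

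At PN2 the papilla had 933 genes higher (6.55% of those compared) and 725 lower (5.09%) than at E17, together 11.6%. These shares are the background for the counts of every gene list described here. The ratios ran from -5.05 for Crym to 4.85 for Csmd1, and 90% of genes lay between -1.01 and 1.11. Past 4-fold, 103 genes were higher and 47 lower, and past 8-fold the counts were 25 and 7. Of the 1658 called genes only 484 had several probes, although 6436 of the 14238 genes compared had several. Of these 484, 156 had every probe past 2-fold in one direction. The remaining calls, the larger part, rest on 1 probe and have no such check. Just inside the limit stood Usp42, Ahnak and Bcan on the higher side and Mpped2, Dnaaf2 and Arhgap28 on the lower side, and just outside it Nipal3, Triobp and Bcam on the higher side and 5033421B08Rik, Kifc5b and Rcbtb1 on the lower side.

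**Figure D1:**
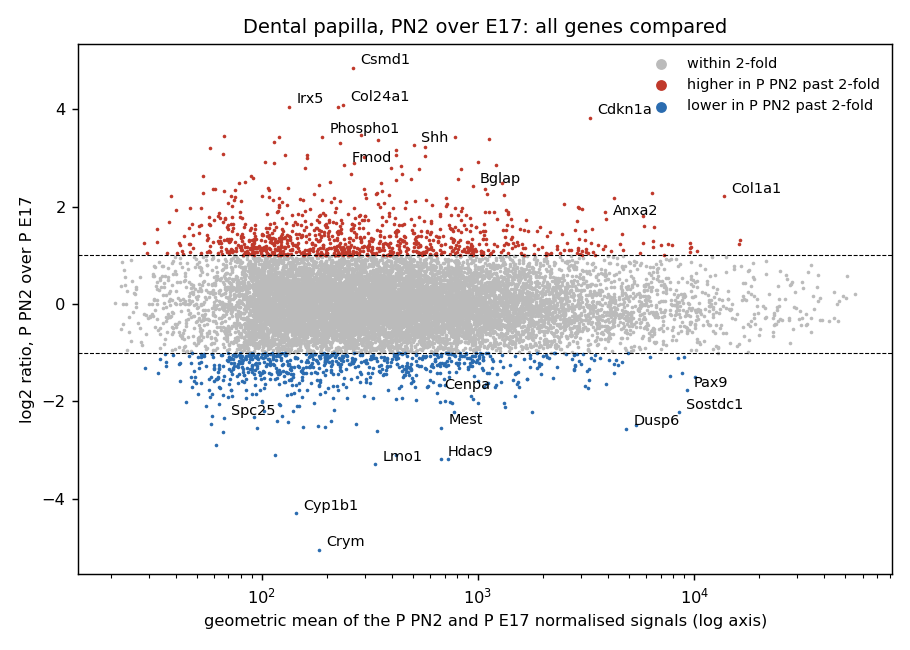
Log2 ratio of P PN2 over P E17 (vertical axis) against the geometric mean of both normalised signals (horizontal axis, log scale), with 1 point per gene and dashed lines at 2-fold. The ratios spread from -5.05 (Crym) to 4.85 (Csmd1), and Cdkn1a and Col1a1 stand out among genes of high signal.

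The genes farthest up at PN2 held matrix and mineralisation genes together with signalling and membrane genes. Csmd1, which encodes a membrane protein with complement-control domains, had a signal of 1416 in P PN2 and 49.1 in P E17 (log2 ratio 4.85). Col24a1, a fibrillar collagen gene of mineralised tissue, had 985 in P PN2 and 57.8 in P E17, with its probes at 3.66 and 4.52. Cdkn1a, the cyclin-dependent kinase inhibitor p21, had 12463 in P PN2 and 875 in P E17. All 3 passed 2-fold upwards in the follicle too, with log2 ratios of 1.25, 1.09 and 1.27.

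Further matrix and cell surface genes followed among the 30 highest. Ccn4, a matricellular protein gene known as a Wnt target, had 965 in P PN2 and 86.4 in P E17, and the latent TGF-beta binding protein gene Ltbp2 2571 in P PN2 and 237 in P E17. Fibromodulin (Fmod), which binds collagen fibrils, stood at 645 against 89.2, the collagen receptor subunit Itga11 at 285 against 37.7 (raised ratio 2.91) and the heparan sulfatase Sulf1 at 1047 against 151. These 5 genes lay between log2 ratios of 2.79 and 3.48, and only Ltbp2 among them also passed 2-fold in the follicle (2.10). Ccn4, Itga11 and Sulf1 had higher signals in the follicle at both stages than in P PN2. In DF PN2 and DF E17 these were 2608 and 2983 for Ccn4, 1457 and 1006 for Itga11 and 4920 and 5866 for Sulf1. Fmod (293 and 278) and Ltbp2 (420 and 98) stood below P PN2 there. The sphingomyelin synthase gene Sgms2, linked to bone mineralisation in humans, had 466 in P PN2 and 55.8 in P E17. Gdpd2, a glycerophosphodiesterase gene of osteoblasts, had 459 in P PN2 and 56.9 in P E17, but 1291 in DF PN2 and 1064 in DF E17. Parm1 (log2 ratio 3.04), Lrrc15 (2.84) and Mamdc2 (2.79) encode further membrane or secreted proteins, and Mamdc2 also passed 2-fold upwards in the follicle (1.03).

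The other genes of this set included signals, channels and nuclear factors. Sonic hedgehog (Shh), an epithelial signal of the tooth, had a signal of 1567 in P PN2 and 163 in P E17, and secretin (Sct), a peptide hormone gene, 2764 in P PN2 and 365 in P E17. The sodium-activated potassium channel gene Kcnt2 stood at 1734 against 185 and the calcium channel subunit gene Cacnb1 at 368 against 44.2. Irx5, a homeobox gene, had 545 in P PN2 and 32.9 in P E17, a log2 ratio of 4.05 and a raised ratio of 3.85. Dpf3, a subunit of the BAF chromatin remodelling complex, had 1256 in P PN2 and 139 in P E17, while its follicle signals were 45.4 in DF PN2 and 78.4 in DF E17. Dio3os, an RNA antisense to the thyroid hormone deiodinase gene Dio3, had a log2 ratio of 3.39, and Dio3 itself 2.12. Ms4a7, a macrophage membrane protein gene, stood at 917 against 55. Scin, which severs actin filaments (3.43, raised ratio 3.39), Wfdc1 (3.36), the ubiquitin ligase gene Rnf180 (3.32), Cyria (3.34, raised ratio 3.25), Tspan8 (3.06), Ccdc162 (3.03), Tmem232 (2.90) and Slc45a3 (2.85) also belonged to the 30, as did Phospho1 (3.44), which is described with the mineralisation genes. Several of these genes passed 2-fold upwards in the follicle too: Ccdc162 (3.48), Tmem232 (2.60), Phospho1 (2.13), Tspan8 (2.12), Shh (1.87), Cacnb1 (1.43) and Ms4a7 (1.37). The other genes of the 30 in this paragraph stayed within 2-fold there.

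The lowest genes were led by a thyroid hormone binding protein and a cytochrome P450. Crym, which binds thyroid hormone in the cytosol, had a signal of 31.9 in P PN2 and 1058 in P E17, and Cyp1b1, which metabolises retinoids and steroids, 32.4 in P PN2 and 638 in P E17. Both P PN2 signals lay under the 5th percentile, and against it the log2 ratios were -4.80 and -4.07. Crym was also lower in the follicle (-1.58), whereas Cyp1b1 stood there at -0.85.

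Regulators of transcription and signalling followed. The LIM-only factor gene Lmo1 had 107 in P PN2 and 1049 in P E17, the histone deacetylase gene Hdac9 222 in P PN2 and 2026 in P E17 and the LIM homeobox gene Lhx8 653 in P PN2 and 2659 in P E17. Tfap2c (91.5 against 481) and Foxf2 (361 against 1666) are further transcription factor genes on this side. The Wnt receptor gene Fzd1 stood at 143 against 1230.4, the secreted Wnt antagonist gene Frzb at 637 against 2773 and Sostdc1, an antagonist of BMP and Wnt signals, at 3929 against 18371. Dusp6, the phosphatase induced by ERK signalling that switches it off, had 1984 in P PN2 and 11771 in P E17. Smad2, a mediator of TGF-beta signals, stood at 76.7 against 434 and was also lower in the follicle (-1.88). The guidance molecule gene Rgma (-2.04) and the leucine-rich repeat gene Lingo2 (-2.10) were lower as well.

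Other genes low at PN2 concerned matrix and metabolism. Col8a1, a short-chain collagen gene, had 239.9 in P PN2 and 2186 in P E17, with probes at -3.65 and -2.73. The chondroitin sulfotransferase gene Chst3 stood at 39 against 229 and Tll1, a procollagen-processing protease gene related to Bmp1, at 116 against 643. Mest, an imprinted gene of the growing embryo, had 280.3 in P PN2 and 1633 in P E17 and was lower in the follicle too (-1.50). Embigin (Emb, -2.61), Tafa3 (-3.10), Bspry (-2.40), Commd10 (-2.31), Kcne1l (-2.18), Zfp109 (-2.90), Depdc1b (-2.09), Aldh6a1 (-2.08), Sh3gl3 (-2.03) and the taste receptor gene Tas2r119 (-2.52) also belonged to the 30 lowest. Tll1 (-1.23), Tafa3 (-1.04) and Bspry (-1.73) were lower in the follicle as well. The ribosomal protein gene Rps29 stood at 2276 against 12740.0, but ribosomal protein genes have many near-identical copies, so which copy its probe read is uncertain. Zfp109 lay under the 5th percentile in P PN2, and its ratio against that percentile was -2.14. Xist, the other gene of this group, is given with the sex-linked genes.

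Genes of odontoblasts and dentin were higher at PN2. Of 14 measured genes of this list, 9 were higher and 0 lower, with a median log2 ratio of 1.45 against -0.02 over all genes. Type I collagen (Col1a1), the main protein of dentin and bone, had a signal of 29511 in P PN2 and 6362 in P E17. Osteocalcin (Bglap), a calcium-binding protein of mineralised matrix, had 2187 in P PN2 and 408 in P E17, although its near-identical neighbouring copies may share that signal. Panx3, a channel protein gene of mineral-forming cells, stood at 3061 against 544, and bone sialoprotein (Ibsp), which nucleates mineral, at 636 against 205.

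Regulators and secreted factors of the same list went the same way. Osterix (Sp7), the transcription factor needed for osteoblast and odontoblast maturation, had 1287 in P PN2 and 452 in P E17. Klf4, a transcription factor gene active when odontoblasts leave the cell cycle, had 5077 in P PN2 and 1216 in P E17. Notum, which inactivates Wnt proteins, stood at 1425 against 355 and the matrix protein gene Sparc at 5822 against 2561. Col1a2 had signals of only 70.9 in P PN2 and 27.1 in P E17, so its log2 ratio of 1.39 became 0.90 against the 5th percentile. Biglycan (Bgn) at 0.93, the sphingomyelinase gene Smpd3 at 0.81, Wnt10a at 0.78, nestin (Nes) at 0.70 and Dlx3 at -0.47 did not pass 2-fold. Dspp, Dmp1, Mepe, Spp1, Phex and Runx2 were not analysed here. In the follicle 1 of the 14 genes, Smpd3, was higher (1.47), and Col1a1 stood at 0.00.

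The window around the start of Bglap is shown because the gene is among the farthest up of this list and its matches to a pair of searched motifs can be read in place. It runs from 250 bases before to 50 bases after the gene start (RefSeq, GRCm38.p6, chr3:88384417-88384716, minus strand), and capitals mark ACCACA, the core letters bound by RUNX factors, and the TATA box TATAAA.
Bglap: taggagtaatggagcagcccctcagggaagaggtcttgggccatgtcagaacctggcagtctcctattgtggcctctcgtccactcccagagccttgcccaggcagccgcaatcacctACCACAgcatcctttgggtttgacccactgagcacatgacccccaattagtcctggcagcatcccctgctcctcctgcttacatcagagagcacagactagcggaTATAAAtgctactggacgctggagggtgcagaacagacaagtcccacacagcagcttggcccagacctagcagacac
The RUNX letters TGTGGT or ACCACA were found in 14.8% of the windows of higher genes, in 16.3% of those of lower genes and in 13.2% of those of all genes compared that have a window, and in 2 of 7 windows of the odontoblast list. TATAAA or TTTATA was found in 9.94%, 11.6% and 9.08% of the same sets, and in all promoters of that length the shares were 16.9% for RUNX and 14.2% for TATA.

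Enzymes and transporters of mineralisation were also mostly on the PN2 side, with 7 of 20 higher, 1 lower and a median of 0.85. Phospho1, the phosphatase that frees phosphate inside matrix vesicles, had a signal of 629 in P PN2 and 57.8 in P E17. The vitamin D receptor gene Vdr had 245 in P PN2 and 46.9 in P E17, and annexin A2 (Anxa2), a calcium-dependent membrane protein of matrix vesicles, 7154 in P PN2 and 2118 in P E17. Fam20c, the kinase that phosphorylates secreted matrix proteins, stood at 703 against 315 and its partner Fam20a at 176 against 65.8. Annexin A5 (Anxa5, 1.08) and osteomodulin (Omd, 1.17) also passed 2-fold. The gene Ank, whose product exports the mineral inhibitor pyrophosphate, was lower, with 41.1 in P PN2 and 97.3 in P E17. Phosphate transporters did not pass 2-fold, Slc20a1 standing at -0.04 and Slc20a2 at 0.82. In the follicle 2 genes of the list were higher and 2 lower, with Phospho1 at 2.13 and Omd at -1.07.

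**Figure D2:**
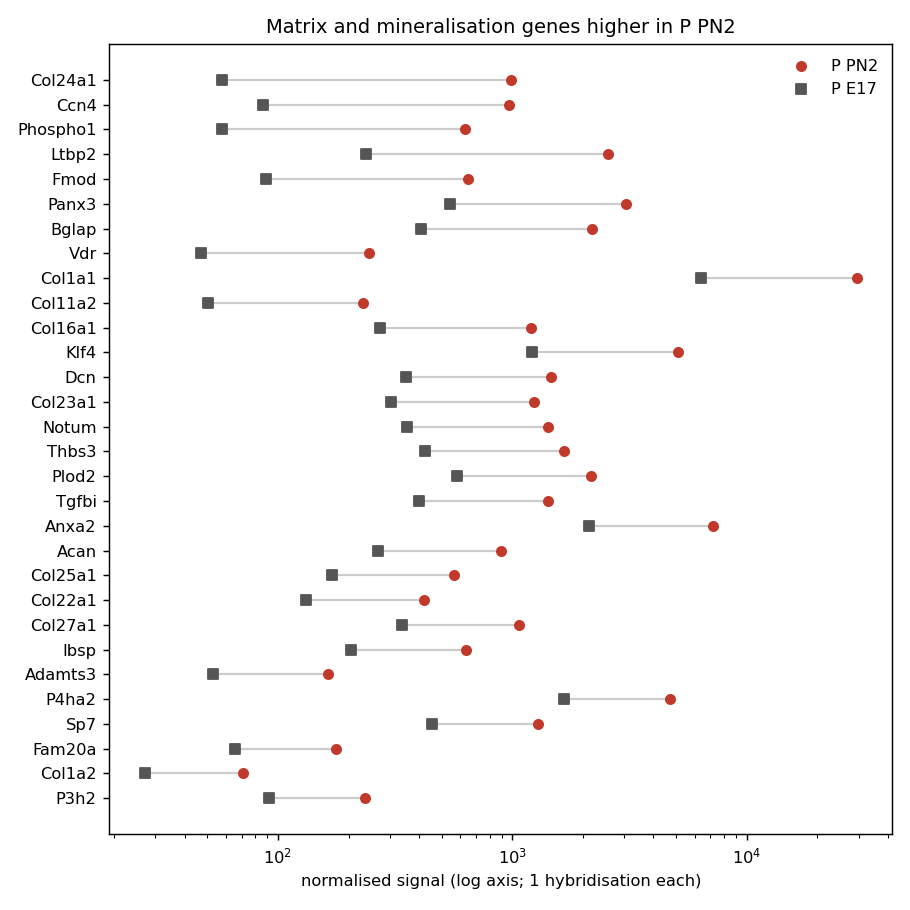
Normalised signals (horizontal axis, log scale) of the 30 matrix and mineralisation genes with the highest ratios, P PN2 as red circles and P E17 as grey squares, each from 1 hybridisation. The separation runs from 17-fold for Col24a1 to 2.57-fold for P3h2.

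Other mineral-forming and tooth cells share many of these genes, and markers of the follicle next to the papilla went both ways. Of 14 follicle markers, 5 were higher in P PN2, 2 lower and 7 within 2-fold, with a summed signal of 8809.8 in P PN2 and 7732 in P E17. Higher were Sulf1, Igfbp5, Lepr, Acan and Lox, of which Acan and Lox are also counted in the matrix lists below. Lepr was higher only from signals near the 5th percentile. Lower were Foxf2 (-2.21) and Bmp3 (-1.85). Of the 14 markers, Mgp had 33.9 in P PN2 and 18.2 in P E17 and Gas1 27.3 in P PN2 and 37.9 in P E17, at or under the 5th percentile. Whether carried-over follicle or bone had a part in the matrix result was not tested. In these bulk samples fewer cells of a type and less RNA per cell cannot be told apart.

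Among 25 further collagen genes, 8 were higher and 2 lower (median 0.36). The list median was 0.09 when the probes of a gene were summarised by their median, with the same counts. Of the 8 higher genes 6 had every probe past 2-fold. The summed signal of the list was 43276 in P PN2 and 42173 in P E17. The fibrillar genes Col11a2 (229 against 50.3) and Col27a1 (1073 against 339) stood with Col24a1 on the PN2 side. So did the fibril-associated genes Col16a1 (1201 against 272) and Col22a1 (420.3 against 132) and the transmembrane collagens Col23a1 (1238 against 304) and Col25a1 (563 against 170.4). The probes of Col22a1 disagreed, at 3.52 and -0.19, and those of Col25a1 stood at 0.94 and 2.51. Col6a1, a chain of the beaded microfibrils of pulp, had 3518 in P PN2 and 1542 in P E17. On the E17 side Col14a1 had 298 in P PN2 and 723 in P E17 beside Col8a1. The major fibrillar genes other than type I did not pass 2-fold: Col3a1 stood at 0.06, Col5a1 at 0.36 and Col5a2 at -0.33. In the follicle only Col24a1 was higher and only Col8a2 lower (-1.66).

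Genes for collagen modification and secretion had 8 of 27 higher and 1 lower (median 0.65). The lysyl hydroxylase gene Plod2, which prepares collagen cross-links of mineralised tissue, had 2162 in P PN2 and 581 in P E17. Prolyl hydroxylase subunits followed with P4ha2 at 4729 against 1656 and P4ha1 at 538 against 249, and the prolyl 3-hydroxylase gene P3h2 with 234 against 91.1. Of the procollagen proteinase genes, Adamts3 was higher with 163 against 52.6 and Bmp1 with 4266 against 1977, whereas Adamts14 stood at 0.75 and Tll1, outside this list, was lower. The cross-linking enzyme lysyl oxidase (Lox) stood at 98 against 39.8. Pcolce2, an enhancer of procollagen cleavage, was lower with 1106 in P PN2 and 2724 in P E17. The collagen chaperone Serpinh1 had 47519.9 in P PN2 and 45391 in P E17 and the general folding enzyme P4hb 9859.7 in P PN2 and 10931 in P E17, neither past 2-fold. In the follicle Adamts3 was lower (-1.34) and P4ha2 stood at -0.63.

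Of 34 proteoglycan, elastic fibre and adhesive genes, 10 were higher and 2 lower (median 0.41). Besides Fmod, Ccn4 and Ltbp2, decorin (Dcn), a small proteoglycan that limits fibril growth, had 1459 in P PN2 and 350.4 in P E17, with probes at 0.94 and 3.18. Thrombospondin 3 (Thbs3) stood at 1662 against 424, the TGF-beta-induced adhesive protein gene Tgfbi at 1418 against 398 and aggrecan (Acan) at 899 against 268. Ltbp3 (1.33), tenascin C (Tnc, 1.13) and Ccn1 (1.13) passed 2-fold by less. The large proteoglycan versican (Vcan), typical of loose embryonic mesenchyme, was lower with 2149 in P PN2 and 4356 in P E17, and so was Thbs4 (-1.26). In the follicle 1 gene of the list was higher and 5 lower. Elastin (Eln) stood at -0.04 in the papilla and -2.25 in the follicle.

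**Figure D3:**
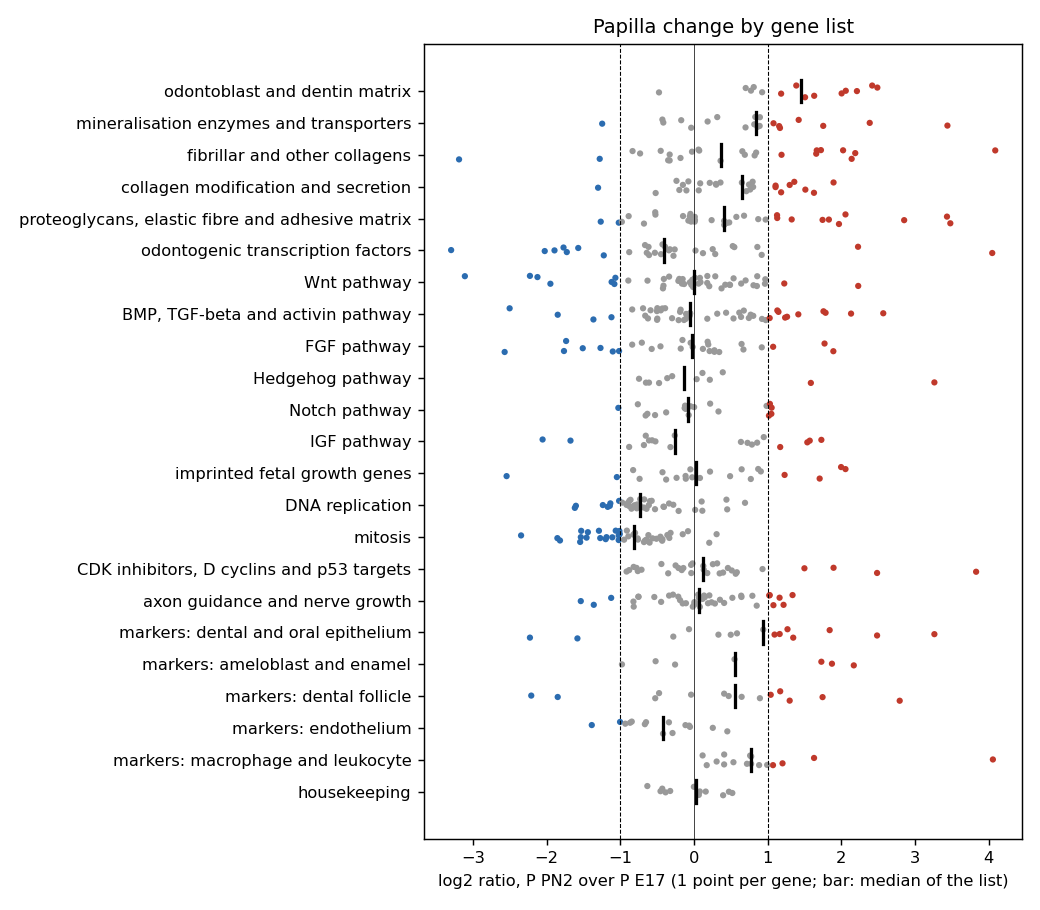
Log2 ratios of P PN2 over P E17 for each measured gene of 23 gene lists (points), red where higher and blue where lower past 2-fold, with list medians as bars and dashed lines at 2-fold. Matrix lists lie to the right, cell cycle lists to the left, and the odontogenic transcription factors have 7 genes past 2-fold on the left and 2 on the right.

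Transcription factors of odontogenic mesenchyme had 7 of 30 lower and 2 higher (median -0.41). Pax9, needed for teeth to pass the bud stage, had 4994 in P PN2 and 17025 in P E17. Dlx1 stood at 1775 against 5868, Dlx2 at 319 against 744 and Twist1, a mesenchymal repressor gene, at 481 against 1785. Lef1, the nuclear partner of beta-catenin in tooth mesenchyme, had 349 in P PN2 and 1037 in P E17 with all 3 probes past 2-fold. Together with Lmo1 and Lhx8 these made up the lower genes. Other early regulators did not pass the limit, with Barx1 at -0.64, Lhx6 at -0.88, Msx1 at -0.32, Dlx5 at 0.12 and Msx2 at 0.53. Irx3 (156 in P PN2 and 33.3 in P E17) was higher beside Irx5, both from signals under the 5th percentile in P E17, and its raised ratio was 2.04. Nfic, a factor for root and odontoblast formation, stood at 0.86. In the follicle Msx2 (2.33), Osr2 (1.06) and Dlx2 (1.03) were higher.

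Wnt pathway genes had 7 of 44 lower and 2 higher, with a median of 0.00, beside 5.09% lower and 6.55% higher over all genes compared. The R-spondin gene Rspo1, an enhancer of Wnt signals, had 214 in P PN2 and 824 in P E17. Lower receptors were Fzd1 and Fzd4 (496 against 1076), and lower antagonists Frzb and Sostdc1. Axin2, a feedback target of the pathway, stood at 170.3 against 356 and the nuclear factor gene Tcf7l2 at 727 against 1537. The higher genes were the ligand gene Wnt3a (138 in P PN2 and 58.9 in P E17) and the antagonist gene Sfrp5, whose 82.1 in P PN2 and 17.5 in P E17 gave 2.23 but 1.11 against the 5th percentile. No other measured ligand passed 2-fold, Wnt5a standing at 0.01 and Wnt6 at 0.97. Rspo1 was higher in the follicle (1.56).

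In the BMP, TGF-beta and activin list 10 of 48 genes were higher and 4 lower (median -0.05). The shares over all genes compared were 6.55% higher and 5.09% lower. Ligands on the PN2 side were Bmp8a (1199 against 202), Bmp5 (249.7 against 93.4), Bmp7 (1667 against 706), Tgfb1 (106 against 30.8), Tgfb2 (2242 against 933) and Tgfb3 (417 against 190.3). The probes of Bmp5 stood at 0.35 and 2.49 and those of Bmp7 at 1.84 and 0.64, so not every probe passed 2-fold. The raised ratio of Tgfb1 was 1.49, that of Chrdl2 2.04 and that of Bmp3 -1.56. Bmp2, a ligand of the papilla and odontoblasts, had 16904 in P PN2 and 8593 in P E17 and missed the limit at 0.98, and Bmp4 stood at -0.66. Among inhibitors 3 were higher: the antagonist gene Chrdl2 had 156 in P PN2 and 35.5 in P E17, the inhibitory Smad6 495 in P PN2 and 146 in P E17 and the pseudoreceptor Bambi 352 in P PN2 and 159 in P E17. The antagonist genes Nog (-0.50), Chrd (-0.30), Fst (-0.39) and Fstl3 (-0.59) did not pass 2-fold. Among receptors Tgfbr2 was higher (1.03), whereas Bmpr1a (-1.12) and Bmpr1b (-1.36) were lower. Bmp3, an antagonistic ligand gene of bone, had 31 in P PN2 and 112 in P E17, and Smad2 was the fourth lower gene. The direct BMP target genes Id1 and Id3 stood at -0.43 and 0.92.

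In the FGF list 28 genes were measured, of which 7 were lower and 3 higher (median -0.03). Of all genes compared 5.09% were lower and 6.55% higher. Among genes that FGF signalling is known to induce, those lower at PN2 were Dusp6, Spry4 (188 against 534), Spry2 (35.1 against 117), Etv4 (690.3 against 1480.5), Etv5 (2008 against 4061) and Il17rd (287 against 691), with a raised ratio of -1.62 for Spry2. Spry1 stood at -0.45 and Etv1 at 0.19. Fgf10, a mesenchymal ligand that maintains dental epithelium, had 209 in P PN2 and 709.6 in P E17. The receptor gene Fgfr3 was higher with 2285 in P PN2 and 615 in P E17 and all 3 probes past 2-fold, and Fgfr1 stood at 0.92. The ligand genes Fgf20 (149 against 43.7) and Fgf18 (81.3 against 38.6) were also higher, from signals near the 5th percentile. In the follicle Dusp6 stood at 0.34 and Etv5 at 0.43, and Fgf10 was lower there as well (-1.53).

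In the Hedgehog list 2 of 12 genes were higher, Shh and the ciliary gene Kif7 (343 against 114), and 0 lower. For this short list and the Notch list below, the shares over all genes compared were 6.55% higher and 5.09% lower. The pathway's targets stood within 2-fold, with Ptch1 at 0.22, Gli1 at 0.55 and Hhip at -0.74. Notch genes had 4 of 20 higher and 1 lower, all close to the limit. The target genes Hey1 (8121 in P PN2 and 3907 in P E17), Heyl (1.03) and Hes1 (1.02) and the ligand gene Jag2 (1.05, raised ratio 1.00) were higher and the receptor gene Notch1 (-1.03) lower. Under the other normalisations tried the number of higher Notch genes was 1 or 2 and that of lower ones 0, so most of these calls were lost, and without any normalisation 0 were higher and 6 lower.

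Insulin-like growth factor genes had 4 of 19 higher and 2 lower. Over all genes compared 6.55% were higher and 5.09% lower, the background for this list and the imprinted list below. Igf1, the growth factor itself, had 484 in P PN2 and 163 in P E17 and its signalling adaptor Irs1 2660.5 in P PN2 and 915 in P E17. Binding protein genes differed in direction: Igfbpl1 (372 against 112) and Igfbp5 (346 against 153) were higher and Igfbp7 (1744 against 5569.9) lower. Pappa2, a protease that cleaves binding proteins, stood at 31.3 against 129.8 (raised ratio -1.78). Of 22 imprinted and fetal growth genes 4 were higher and 2 lower (median 0.03). H19, a non-coding RNA of fetal tissue, had 5802 in P PN2 and 1452 in P E17, the zinc finger gene Plagl1 5187 in P PN2 and 1588 in P E17 and Meg3 554 in P PN2 and 236 in P E17, with Dcn as the fourth. Igf2 stood at -0.23, Peg3 at 0.77 and Dlk1 at -0.38, and Asb4 was lower (-1.05) beside Mest. In the follicle 8 of the same genes were lower and 0 higher (median -0.87), Plagl1 among them at -1.65. These 2 stage changes share no column, and the difference between them was not tested.

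Genes of mitosis were lower in the papilla at PN2. Of 44 measured genes 18 passed 2-fold downwards and 0 upwards, with a median of -0.81, and 42 of the 44 had a ratio below 0. Centromere and kinetochore genes among them were Spc25 at 29.7 against 151 (raised ratio -1.99), Cenph at 49.6 against 179, Cenpa at 343 against 1209.8 and Nuf2 at 996 against 2876. The mitotic kinase genes Aurka (408 against 1189), Aurkb (80 against 232), Ttk (94.8 against 229) and Plk1 (472 against 958) were lower as well. Foxm1, the transcription factor of this gene programme, had 1189 in P PN2 and 3222 in P E17, and the anaphase activator Cdc20 3058 in P PN2 and 6957 in P E17. Pttg1 (-1.46), Ccnb2 (-1.29), Cenpe (-1.20), Birc5 (-1.11), Mad2l1 (-1.06), Cdc25c (-1.02), Kif20a (-1.01) and Ect2 (-1.01) completed the lower genes. The proliferation marker Mki67 stood at -0.80 and Cdk1 at -0.43. Under the other normalisations the number of lower genes was below 18, from 11 (the deposited ratios) to 14, without upward calls, and without any normalisation it was 40.

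DNA replication genes went the same way with 7 of 39 lower and 0 higher (median -0.74). The ribonucleotide reductase genes Rrm1 (876 against 2658) and Rrm2 (159 against 350.1) supply deoxynucleotides, and Tyms (372 against 817) makes thymidylate. Cdc6, which loads the replicative helicase, had 96.5 in P PN2 and 296 in P E17, and the sliding clamp Pcna 275 in P PN2 and 648 in P E17. Cyclin E1 (Ccne1) at -1.17 and DNA polymerase alpha (Pola1) at -1.01 completed the lower genes. All 6 helicase subunit genes lay below 0 without passing 2-fold, from Mcm7 at -0.85 to Mcm4 at -0.28. Under the other normalisations the lower count ran from 3 (the deposited ratios) to 7, and it was 31 without normalisation. In the follicle 0 of the 44 mitosis genes passed 2-fold (median -0.13), and 4 replication genes were higher and 0 lower (median 0.02). Those follicle genes were E2f2 (2.39), Fen1 (1.95), Pold1 (1.54) and Orc1 (1.11). The difference between the tissues was not tested.

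**Figure D4:**
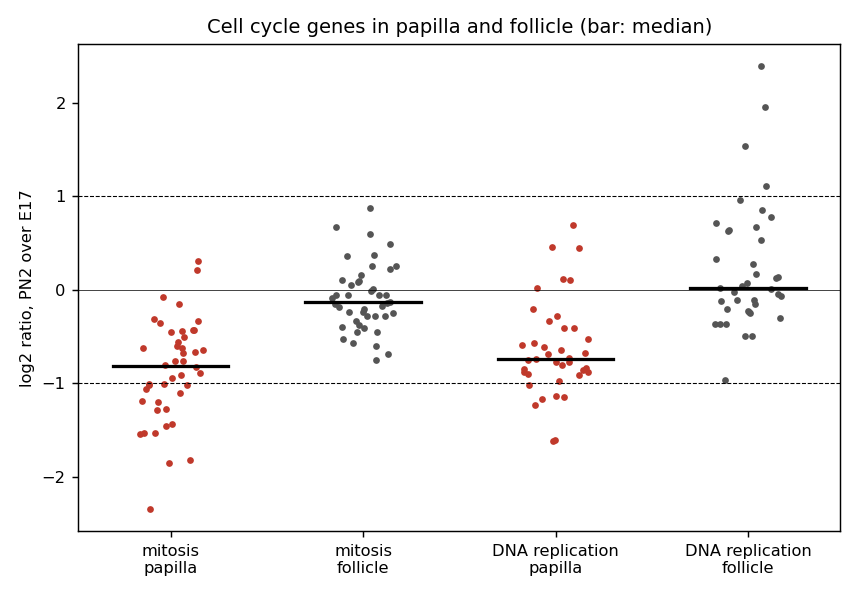
Log2 ratios of PN2 over E17 (vertical axis) for the genes of mitosis and of DNA replication in the papilla (red) and in the follicle (grey), with medians as bars and dashed lines at 2-fold. The papilla medians are -0.81 and -0.74 and the follicle medians -0.13 and 0.02.

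Windows at the starts of 3 lower mitosis genes are shown because many promoters of this gene class carry a CHR element (TTTGAA or TTCAAA) and CCAAT boxes (CCAAT or ATTGG), which are known to bind the complexes that time mitotic genes. Capitals mark these letters on either strand in the windows from 250 bases before to 50 after the start (RefSeq, GRCm38.p6). The window of Cdc20 is chr4:118437294-118437593, minus strand, that of Aurka chr2:172370521-172370820, minus strand and that of Cenpa chr5:30666636-30666935, plus strand.
Cdc20: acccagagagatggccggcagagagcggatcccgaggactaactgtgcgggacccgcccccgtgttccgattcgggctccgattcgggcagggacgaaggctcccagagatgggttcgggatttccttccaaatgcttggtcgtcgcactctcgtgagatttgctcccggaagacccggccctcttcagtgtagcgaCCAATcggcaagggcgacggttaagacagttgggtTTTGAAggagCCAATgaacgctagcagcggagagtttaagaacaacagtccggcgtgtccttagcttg
Aurka: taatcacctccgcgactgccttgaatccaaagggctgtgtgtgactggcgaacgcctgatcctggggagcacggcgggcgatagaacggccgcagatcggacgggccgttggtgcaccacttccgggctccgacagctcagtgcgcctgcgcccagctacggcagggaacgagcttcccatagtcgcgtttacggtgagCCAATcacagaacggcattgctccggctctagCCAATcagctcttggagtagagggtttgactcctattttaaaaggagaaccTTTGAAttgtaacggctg
Cenpa: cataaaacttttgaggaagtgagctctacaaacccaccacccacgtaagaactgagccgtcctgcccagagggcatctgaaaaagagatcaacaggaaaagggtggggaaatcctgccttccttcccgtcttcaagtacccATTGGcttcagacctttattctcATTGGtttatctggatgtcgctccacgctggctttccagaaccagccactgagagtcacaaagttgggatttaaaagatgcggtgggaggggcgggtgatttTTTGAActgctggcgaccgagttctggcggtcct
In each the CHR letters lie downstream of a pair of CCAAT boxes or between them. CHR letters were found in 25 of 36 windows of the mitosis list (69.4%) and in 8 of 14 of its lower genes, against 1483 of 11381 windows of all genes compared and 18.1% of all promoters. CCAAT or ATTGG was found in 75.0% of the list's windows, against 38.5% of genes compared and 37.9% of all promoters. In the replication list the E2F letters TTTGGCGC or TTTCGCGC, on either strand, were found in 9 of 34 windows (26.5%), against 1.39% of genes compared and 0.833% of all promoters. Among the lower genes of that list they were found in 1 of 7 windows. Over all called genes the CHR share was 18.2% of lower and 9.94% of higher genes. A match is a description of letters, and no binding was measured here.

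The cell cycle inhibitors Cdkn1a and Cdkn1c were higher at PN2. In the list of CDK inhibitors, D cyclins and p53 targets 4 of 31 genes were higher and 0 lower (median 0.13). Over all genes compared these shares were 6.55% and 5.09%, and 15 of the 31 genes had a ratio below 0. Beside Cdkn1a, the inhibitor p57 (Cdkn1c) had 5267 in P PN2 and 1861 in P E17, while in the follicle it was lower (-1.73). The stress-inducible gene Gadd45b had 2659 in P PN2 and 714 in P E17 and Perp, a p53 target and desmosome gene of epithelia, 838 in P PN2 and 149 in P E17. Other inhibitors did not pass 2-fold, with Cdkn1b at -0.88, Cdkn2c at -0.91, Cdkn2d at -0.71 and Cdkn2b at -0.04. Cyclin D1 (Ccnd1) had 11309 in P PN2 and 5927 in P E17 and stood at 0.93. The p53 targets Mdm2 (-0.16), Ccng1 (-0.35) and Bbc3 (0.26) stayed within 2-fold.

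Axon guidance and nerve growth genes, which pattern the innervation of the pulp, had 6 of 42 higher and 3 lower (median 0.07). Over all genes compared the shares were 6.55% higher and 5.09% lower. The neurotrophin receptor gene Ntrk3 had 2260.4 in P PN2 and 893 in P E17, and the GDNF-family receptor gene Gfra2 1306 in P PN2 and 618 in P E17. Among guidance ligands Slit3 (1329.9 against 594), Sema3e (222 against 95.7) and Sema3a (258 against 126) were higher, and Slit2 (283 against 617) was lower. Sema3a is known to keep nerve fibres out of the early papilla. Receptor genes also went both ways, with Plxna2 (1.02) higher and Unc5c (-1.36) and Epha5 (-1.54) lower. Of the 9 called genes 3 had every probe past 2-fold, genes with 1 probe included.

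Matrix proteases and their inhibitors had 2 of 31 higher and 3 lower (median -0.01), beside 6.55% higher and 5.09% lower over all genes compared. The membrane disintegrin gene Adam23 had 962 in P PN2 and 226 in P E17 and pigment epithelium-derived factor (Serpinf1) 4641 in P PN2 and 1836 in P E17. Lower were the tissue inhibitor Timp3 (637 against 1958), gelatinase B (Mmp9, 312 against 851) and Adamts4 (57.7 against 132). Gelatinase A (Mmp2) stood at -0.82 and the membrane protease Mmp14 at 0.39.

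Some markers of other cell types passed 2-fold between the stages in the papilla column, where 6.55% of all genes compared were higher and 5.09% lower. Of 15 epithelial genes 7 were higher and 2 lower (median 0.94), with a summed signal of 11611 in P PN2 and 21857 in P E17. Sostdc1 alone gave 3929 and 18371 of these sums. The keratin gene Krt5 (1267 against 353), Epcam (513 against 201), Trp63 (183 against 75.8), Dsp (324 against 145) and Dsg2 (386 against 181) were higher beside Shh and Perp. Krt15 was lower (24.2 against 72.4, raised ratio -0.93). Of 7 enamel genes 3 were higher and 0 lower, amelogenin (Amelx) with 539 against 162, ameloblastin (Ambn) with 367 against 100.0 and the factor Sp6 with 9018 against 2002. The summed signal of this list was 10863 in P PN2 and 3506 in P E17, of which Sp6 alone gave 9018 and 2002. Amelx and Ambn are also known in young odontoblasts, and the part of epithelium in the ratios of Shh and the other epithelial genes was not tested.

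Vessel, blood and immune markers went in both directions. Most of these lists are short, and over all genes compared 11.6% were called. Endothelial genes had 2 of 15 lower and 0 higher (median -0.42), Sox18 with 94.5 against 247 and Cdh5 with 153 against 307, at the limit. The probes of Cdh5 disagreed, at 0.17 (609 against 541) and -2.17 (38.5 against 174), so its call rests on the weaker probe. Of 12 pericyte and smooth muscle genes 1, Pdgfrb, was lower with 351 in P PN2 and 1401 in P E17. Macrophage genes had 4 of 16 higher and 0 lower (median 0.77), C1qb with 984 against 467, Aif1 with 469 against 151 and Lyz2 with 453 against 197 beside Ms4a7, and a summed signal of 8409 in P PN2 and 4842 in P E17. Neutrophil genes had 1 of 6 higher, S100a9 with 199 against 75.8, and erythroid genes 2 of 6 lower, Klf1 with 106 against 324 and adult beta globin (Hbb-b1) with 2726 against 6017. Osteoclast genes had 2 of 11 lower, Mmp9 and Oscar (-1.11), and 1 higher, Tnfrsf11a (1.33). Of 9 genes of nerve and Schwann cells 1 was higher, the tubulin gene Tubb3 (839.8 against 292), and cartilage genes 2 of 7, Acan and Col11a2. Of 8 skeletal muscle genes 0 passed 2-fold. The part of these cells in the papilla's ratios was not tested.

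Set beside the follicle, the papilla had more genes past 2-fold between the stages, 1658 against 1123 of 14238 (11.6% against 7.89%), a difference that was not tested. In the follicle 545 genes were higher (3.83%) and 578 lower (4.06%). The 91 genes higher in both tissues were 9.75% of those higher in the papilla and 16.7% of those higher in the follicle. Lower in both were 78, which were 10.8% of the papilla's lower genes and 13.5% of the follicle's. Across the 14238 genes, which were normalised together and are not independent replicates, Pearson's r between the papilla and the follicle ratio was 0.173 and Spearman's rho 0.198. Genes called higher in the papilla had a median follicle ratio of 0.19, and genes called lower one of -0.13.

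**Figure D5:**
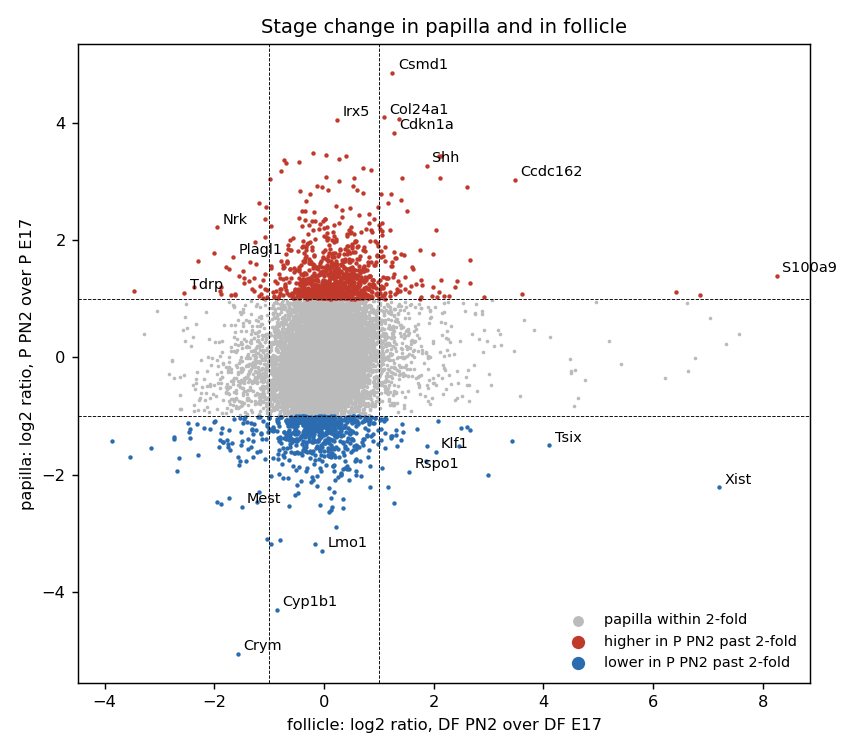
Log2 ratio of PN2 over E17 in the papilla (vertical axis) against that in the follicle (horizontal axis), 1 point per gene, with dashed lines at 2-fold, genes higher in P PN2 in red and lower in blue. Most called papilla genes lie between the vertical dashed lines, and Xist (papilla -2.22, follicle 7.20) and S100a9 (1.39 and 8.26) are at the right edge, where the stefin genes Stfa1 (1.07 and 6.86) and Stfa2 (1.12 and 6.43) also lie.

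With clone and predicted names left out, the genes with the largest difference in favour of the papilla were led by Nrk, a kinase gene on the X chromosome, with 215 in P PN2 and 46.2 in P E17, and 212 in DF PN2 and 816 in DF E17. Wfdc1, Parm1, Rnf180 and Dpf3 rank next, with papilla ratios of 3.36, 3.04, 3.32 and 3.17 and follicle ratios of -0.72, -0.98, -0.69 and -0.79. Abi3bp, a matrix protein gene, stood at 1.64 in the papilla and -2.30 in the follicle. For the potassium channel gene Kcnb2 the signals were 147 against 42.9 in the papilla and 173 against 693 in the follicle. The ratios of Tdrp were 1.11 and -2.55. Irx5, Cyria and Ccn4 stood between -0.45 and 0.23 in the follicle. For Ccn4 the follicle signals, 2608 in DF PN2 and 2983 in DF E17, were above the 965 in P PN2.

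On the other side stood the neutrophil and stefin genes S100a9, Stfa1 and Stfa2, with papilla ratios of 1.39, 1.07 and 1.12 and follicle ratios of 8.26, 6.86 and 6.43. For 3 genes of red cells and basophils the papilla ratio lay below 0 and the follicle ratio above it. The red cell membrane gene Epb42 stood at -1.50 and 2.46, the erythroblast claudin Cldn13 at -1.42 and 3.43 and the basophil protease Mcpt8 at -1.18 and 2.62. Slfn1 had 22.2 in P PN2 and 89 in P E17, and 275 in DF PN2 and 34.4 in DF E17. Mirt1 (-1.24 and 2.67), the coagulation factor gene F10 (-1.20 and 2.50) and Rps29 (-2.48 and 1.28) showed the same order. The raised papilla ratios were -1.07 for Epb42, -1.23 for Slfn1 and -1.04 for F10. The follicle ratios were not raised, although the DF E17 signals of Slfn1 (34.4) and Mirt1 (24.5) lay under the 5th percentile.

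Sex-linked genes differed between the papilla columns. Xist, the RNA that coats the inactive X chromosome of female cells, had 827 in P PN2 and 3846 in P E17, and its antisense RNA Tsix 5995 in P PN2 and 16904 in P E17. The Y-linked genes Eif2s3y and Uty were higher, Eif2s3y with 221 in P PN2 and 35.6 in P E17 (raised ratio 2.55) and Uty with 461 in P PN2 and 176 in P E17. Ssty1, a multicopy Y gene, stood at 0.80. The follicle ratios had the opposite sign in all 5 genes, from -3.04 for Ssty1 to 7.20 for Xist. Sex-linked signals also differed between the tissues within 1 stage. Xist had 3846 in P E17 and 19.7 in DF E17, the latter under the 5th percentile. Tsix had 16904 in P E17 and 737 in DF E17, and Eif2s3y 35.6 in P E17 and 413 in DF E17. The share of female and male RNA in each column is not known, and its part in the ratios of these and other genes was not tested.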

How the data were processed

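Per the labels, the 4 samples are 2-colour arrays of total RNA, and the submitters' processing notes name Agilent Feature Extraction 8.5.1.1. The deposited values are linear signal intensity per probe (30146 probes), and no source used here says if background was subtracted. A deposited value table holds log10 ratios, which for P PN2 over P E17 equal those of the signals plus a constant (0.87 as log2, r of 1.00; against P PN2 over DF E17 r is 0.449). A tissue and stage had the same signals in every file, also where the dye label differs.

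Probes were named from the platform table (25962 with 1 symbol, 4184 without, which were left out; 25858 matched RefSeq by gene number). Log2 signals without a pseudocount were quantile normalised over the 4 columns, averaged per gene and kept at a highest signal of 100 (Python 3.11.15, numpy 2.4.6, pandas 2.3.3, scipy 1.17.1, statsmodels 0.14.6). Steps were tested on simulated data. Members and the 39 lists were chosen with earlier results of these data known. Named genes are the 30 highest and 30 lowest with every probe past 2-fold (ranked with signals raised to the 5th percentile, clone, predicted and receptor-cluster names left out), the 12 farthest each way from the follicle's change, and list members. Promoter windows exist for 11381 of the genes compared, the first listed per gene. The number of arrays limits the precision.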

Additional observations from a re-analysis of the deposited data

Results flagged for a closer look

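In 28 of the genes named or listed above the 1 papilla hybridisation pair and the 1 follicle pair moved past 2-fold in opposite directions, and the difference was not tested. Over all 14238 genes 74 did so, and the named genes include some picked for this difference, which partly sets the count. Values here are the papilla's log2 ratio of PN2 over E17 minus the follicle's, with no signal raised to the 5th percentile. Under that percentile lay the DF E17 signals of Xist (19.7), Mirt1 (24.5) and Slfn1 (34.4) and the DF PN2 signal of Tdrp (29.4). Their differences are therefore less certain in size. Higher in the papilla and lower in the follicle were 15 genes. Matrix and growth genes among them were Abi3bp (3.94), Plagl1 (3.36), Cdkn1c (3.23), Dcn (3.13), Adamts3 (2.97), Fgf18 (2.96) and Omd (2.24). Genes of signalling, nerve and epithelium were Nrk (4.16), Kcnb2 (3.78), Gfra2 (2.23), Sema3a (2.07) and Epcam (2.62), and Tdrp stood at 3.65. The Y-linked genes were Eif2s3y (3.83) and Uty (2.94).

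Lower in the papilla and higher in the follicle were 13 genes, among them the X-linked RNAs Xist (-9.42) and Tsix (-5.61) and the red cell genes Cldn13 (-4.85), Epb42 (-3.97), Klf1 (-3.65) and Hbb-b1 (-2.56). The others were Slfn1 (-5.00), Mirt1 (-3.91), Mcpt8 (-3.80), Rps29 (-3.77), F10 (-3.70), Rspo1 (-3.50) and Dlx2 (-2.26).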

How the results depend on the processing

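Without normalisation the ratios had a median of -0.80, and 127 genes were higher and 4980 lower, with 137 genes in opposite directions in the tissues against 74. Relative to that median, 801 were higher and 625 lower. With a highest signal of at least 300, 444 genes were lower and 40 stood in opposite directions. Under the other planned settings (median centring, quantile normalisation of the papilla columns alone, lowess centring, the deposited ratio table, a lower limit at the 5th percentile, the median of probes, no filter, a filter on the papilla columns and every probe past 2-fold) the higher count ran from 733 to 1033 and the lower from 509 to 813. Higher genes were 65.8% of called genes in the deposited ratio table and 2.49% without normalisation, against 56.3% as reported. Of 39 list medians, 37 or more kept their side of the median of all genes under each scaling. Of 257 named genes past 2-fold, 221 stayed past it with the deposited ratios, 222 with median centring, 231 with papilla quantiles, 233 with lowess centring and 171 without normalisation. All 257 kept their direction under each except no normalisation, where Bcan stood at -0.055, Fgf18 at -0.0067 and Jag2 at -0.019. No paired analysis was possible because each group has 1 replicate, and none could be left out. A probe near background, as in 119 called genes, limits its ratio.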

Other observations

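Ion channel genes, which the results above name only in passing, had 6 of 28 higher and 1 lower in P PN2 than in P E17 (median log2 ratio 0.28). The inward rectifier gene Kcnj2 had a signal of 671 in P PN2 and 130.4 in P E17 and the large-conductance potassium channel gene Kcnma1 758 in P PN2 and 223 in P E17. The calcium channel gene Cacna1h stood at 1272 against 433, Trpm7, a channel with a kinase domain, at 1032 against 443 and Trpm4 at 813 against 388. Scn2b, a sodium channel subunit gene, was lower with 82.6 against 233. The mechanically gated channel genes Piezo1 (0.36) and Piezo2 (-0.03) stayed within 2-fold.

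Over all genes compared 6.55% were higher and 5.09% lower, the background for the list counts given here. Retinoid and thyroid hormone genes had 2 of 22 higher and 4 lower. Cyp26a1, which degrades retinoic acid, had 490.3 in P PN2 and 86.4 in P E17, and Dio3, which inactivates thyroid hormone, 167 in P PN2 and 38.4 in P E17. Lower beside Crym and Cyp1b1 were the receptor gene Rxrg (370.1 against 1492) and the retinol carrier gene Rbp4 (23.3 against 56, a log2 ratio of -0.56 against the 5th percentile). Chromatin genes had 2 of 31 higher, Hdac4 (1.12) and Satb1 (1.48), and 2 lower, Hdac9 and H2ax (-1.42). Glycolysis and hypoxia genes had 2 of 26 higher, Ndrg1 (1.53) and P4ha1, and oxidative and lipid genes 1 of 24, the nuclear receptor gene Pparg (1.32). Immediate early and stress genes had 3 of 28 higher and 1 lower, with the heat shock gene Hspb1 at 5964 against 1539, Fosl2 at 811 against 319.6, Atf4 at 10749 against 4601 and Jun at 40 against 124. In the list of stem and perivascular pulp cell genes 3 of 18 were higher, Klf4, the receptor gene Kit (723 against 206) and Lepr (52.5 against 25.5, a log2 ratio of 0.47 against the 5th percentile), and 3 lower, Pdgfrb, Axin2 and Cd34 (1735 against 4402).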
